A study of Mus musculus with 21 samples.

Results

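The 10 CC chemokine genes described here are Ccl2, Ccl7, Ccl12, Ccl8, Ccl6, Ccl9, Ccl3, Ccl4, Ccl17 and Ccl22. They were taken by symbol from the raw counts of every library and make up 10 of the 34236 gene names counted. Each of them stands on 1 line of the table, and all 10 passed the filter on low counts over the 21 libraries. The libraries are RNA of F4/80+CD64+ macrophages flow-sorted from the kidneys of male C57BL/6J mice of 24 weeks, with a flow sort time given as 5 h. Mice had either Sham surgery or renal artery stenosis (RAS), in which a cuff is placed around the right renal artery. The 3 populations were CD11chi macrophages (3 Sham and 4 RAS libraries), CD11clo macrophages (3 Sham and 4 RAS) and kidney-resident macrophages, KRM (4 Sham and 3 RAS). Per the study's methods the sort kept live CD45+ cells and dumped cells stained for T cell, B cell, NK cell, erythrocyte and granulocyte markers before the F4/80 and CD64 gate. KRM were gated as intermediate for CD11b and CD11c, and the other populations, which the labels call monocyte-derived, as high for CD11b and either high or low for CD11c. The labels name no transgene or deletion and do not say whether a library is 1 mouse or a pool, so the p-values measure the spread between libraries.

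CC chemokines are small secreted proteins with an adjacent pair of cysteines near the start of the mature chain. They bind to glycosaminoglycans on cell surfaces and matrix and attract leukocytes through receptors of the Ccr family. Ccl2, Ccl7 and Ccl12 act through Ccr2 and call inflammatory monocytes out of the bone marrow and into tissue. Mouse Ccl8 acts mainly through Ccr8, and Ccl6, Ccl9 and Ccl3 act through Ccr1. Ccl4 is a close relative of Ccl3 and attracts monocytes and T cells. Ccl17 and Ccl22 share Ccr4, a receptor of regulatory and type 2 helper T cells, and are typical products of activated dendritic cells. In an injured kidney macrophages are both a source and a target of these proteins.

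Of the 10 genes, 8 lie on chromosome 11 and 2 on chromosome 8 of GRCm38. Ccl2 (chr11:82035571-82037453), Ccl7 (chr11:82045712-82047525), Ccl12 (chr11:82101845-82103400) and Ccl8 (chr11:82115185-82116799) follow each other on the plus strand, with 8258 bases between Ccl2 and Ccl7 and 11784 between Ccl12 and Ccl8. A second cluster, 1456119 bases further on, holds Ccl9 (chr11:83572919-83578636), Ccl6 (chr11:83587882-83593087) and Ccl3 (chr11:83647844-83649355) on the minus strand and Ccl4 (chr11:83662584-83664683) on the plus strand. Ccl22 (chr8:94745590-94751699) and Ccl17 (chr8:94810453-94812036) are both on the plus strand with 58753 bases between them. Neighbours in a cluster are paralogs, so any counts that fall on shared stretches are uncertain, in particular between Ccl3 and Ccl4 and among Ccl2, Ccl7, Ccl8 and Ccl12. How far these genes share sequence was not measured.

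RefSeq promoters matched 7 of the 10 genes, all but Ccl2, Ccl7 and Ccl4. The 250 bases before the RefSeq start, which for Ccl22 lies inside the span given above, are printed for 4 of them 5′ to 3′ on the plus strand of GRCm38.p6. Ccl8 and its neighbour Ccl12 are shown because they are the genes of the Ccl2 cluster with the largest and the smallest difference between RAS and Sham KRM, and Ccl17 and Ccl22 because they set CD11chi macrophages apart. Capitals mark matches to 5 motifs, which were the kB consensus, the AP-1 site TGANTCA, the STAT site TTCNNNGAA, the STAT6 site with 4 bases between TTC and GAA, each on both strands, and TATAAA on the gene's strand.
Ccl12, chr11:82101595-82101844: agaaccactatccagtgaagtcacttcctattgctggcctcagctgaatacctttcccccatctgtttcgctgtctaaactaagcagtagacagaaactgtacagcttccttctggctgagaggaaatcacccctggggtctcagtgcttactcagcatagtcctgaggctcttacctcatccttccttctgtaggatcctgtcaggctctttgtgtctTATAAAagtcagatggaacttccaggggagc
Ccl8, chr11:82114935-82115184: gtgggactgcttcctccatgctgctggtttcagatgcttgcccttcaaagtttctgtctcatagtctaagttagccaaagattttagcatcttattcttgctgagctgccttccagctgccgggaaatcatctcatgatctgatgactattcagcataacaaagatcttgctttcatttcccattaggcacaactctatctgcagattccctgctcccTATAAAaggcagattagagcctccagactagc
Ccl17, chr8:94810203-94810452: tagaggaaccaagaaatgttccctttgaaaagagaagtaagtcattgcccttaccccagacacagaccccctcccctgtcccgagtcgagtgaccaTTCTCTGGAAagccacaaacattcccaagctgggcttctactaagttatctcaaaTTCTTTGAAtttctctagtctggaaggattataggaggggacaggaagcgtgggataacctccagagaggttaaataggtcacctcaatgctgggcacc
Ccl22, chr8:94745434-94745683: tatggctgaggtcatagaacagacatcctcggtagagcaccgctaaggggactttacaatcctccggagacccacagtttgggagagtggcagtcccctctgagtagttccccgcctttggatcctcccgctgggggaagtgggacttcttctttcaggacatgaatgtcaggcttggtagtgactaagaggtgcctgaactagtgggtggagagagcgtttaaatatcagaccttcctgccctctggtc
Ccl12 and Ccl8 each hold TATAAA, which begins 31 and 32 bases before the start. TATAAA is in 7.59% of the 32851 promoters of the table. Ccl17 holds a STAT6 site 154 bases and a STAT site 99 bases before its start, motifs found in 5.85% and 7.02% of promoters. The window of Ccl22 holds none of the 5 motifs as spelled here. Among the other 3 promoters, that of Ccl9 holds TATAAA, an AP-1 site and a kB consensus, the last of these in 7.25% of all promoters and the AP-1 site in 6.75%, while those of Ccl6 and Ccl3 hold none.

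Levels are in CPM, counts scaled to a common library total with TMM factors. The libraries held 6891148 to 18592395 counts, so that 3 counts amount to between 0.161 and 0.435 CPM before the factors. Differences are log2 ratios from edgeR, the first group named over the second, with an approximate standard error after ±. It is the absolute log2 ratio divided by the square root of the test's F statistic. Levels carry the SD where it is named. Genes of macrophage identity were counted in every library, with summed levels of 19263 to 26201 CPM in Sham KRM and 2917 to 17350 CPM in the other 5 groups. Some libraries stand apart. CD11chi Sham replicate 3 correlated with its group at r = 0.768 and 0.760 and held 7554 CPM of 10 tubular epithelium genes, against 100 and 113 CPM. CD11clo Sham replicate 3 and KRM Sham replicate 3 held 2339 and 1159 CPM of them. KRM RAS replicate 1 correlated with replicates 2 and 3 at 0.800 and 0.827, while those correlated with each other at 0.980. CD11clo RAS replicate 3 held 17350 CPM of macrophage identity genes, against 6479 to 8016 CPM in its group, and the fewest monocyte genes of it.

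**Figure D1:**
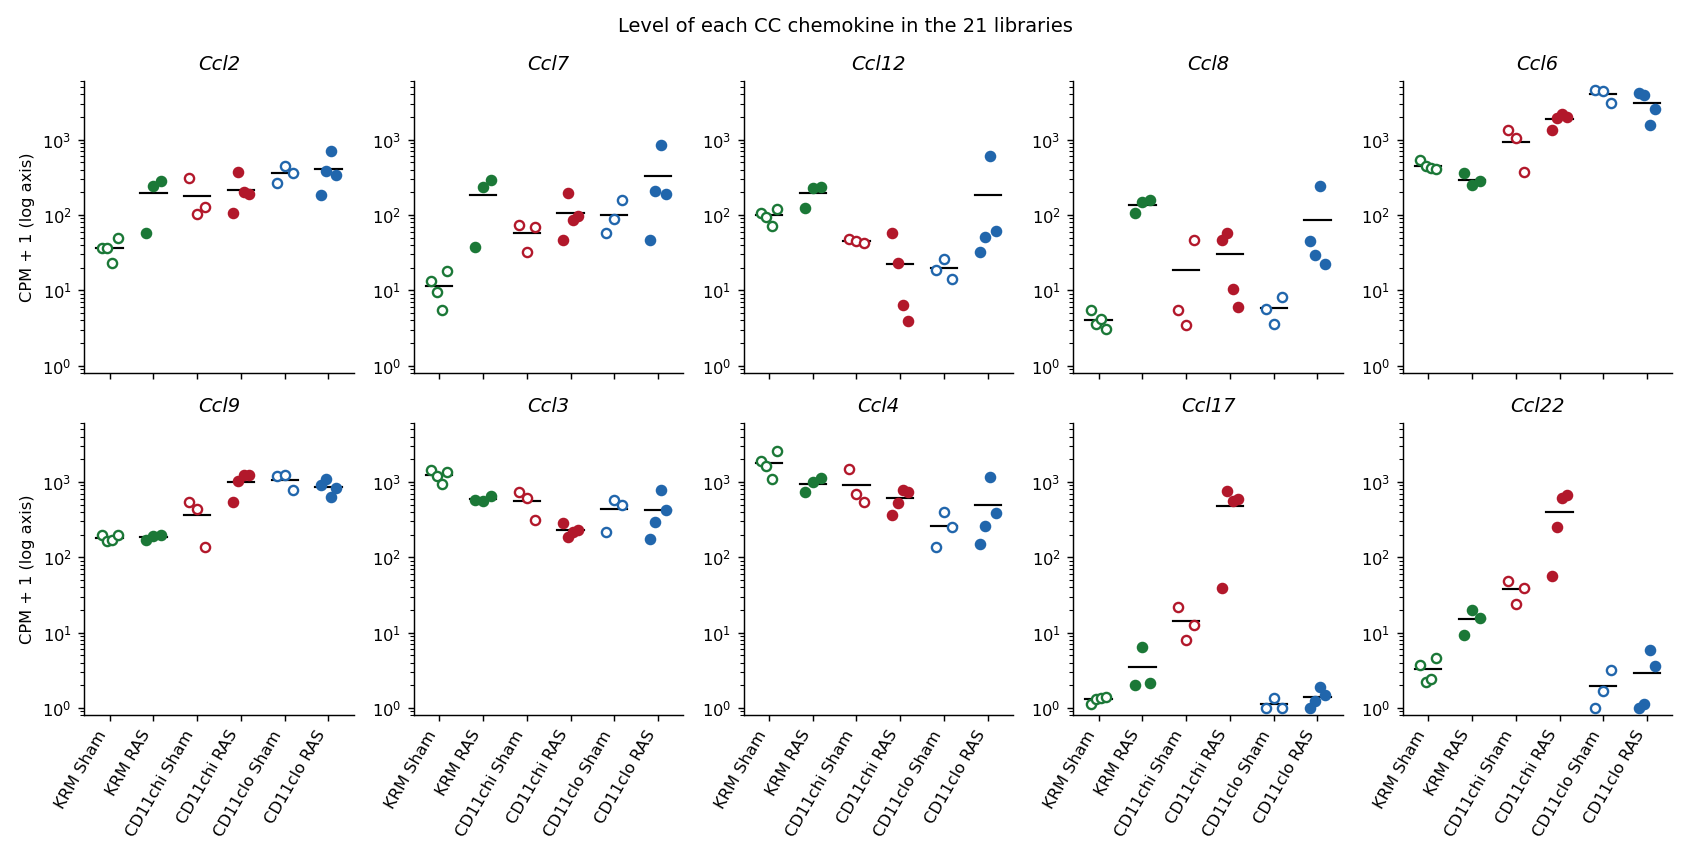
Level of each CC chemokine gene (CPM + 1, log axis) in the 21 libraries, by population and surgery, with open circles for Sham, filled circles for RAS and a black bar for the group mean. Ccl17 and Ccl22 are at 6.95 and 22.9 CPM or more in all CD11chi libraries and at no more than 0.894 and 4.8 CPM in CD11clo. Among Sham libraries Ccl6 is highest in CD11clo. The means of Ccl3 and Ccl4 are highest in Sham KRM, and Ccl8 separates RAS from Sham KRM.

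Each population had its own make-up of CC chemokine transcripts. To compare genes with each other, levels were divided by the exonic length of the gene, as CPM per kb. Ccl4 made up 55% ± 5.28 (SD, n = 4) and Ccl3 33.5% ± 3.55 of the summed level of the 10 genes in Sham KRM. In CD11clo macrophages from Sham kidneys Ccl6 alone made up 55.7% ± 10.3 (SD, n = 3), against 5.41% ± 1.4 in Sham KRM. CD11chi macrophages from Sham kidneys lay between them, with 43% ± 5.68 of Ccl4, 23.6% ± 4.12 of Ccl3 and 16% ± 5.01 of Ccl6 (SD, n = 3).

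In RAS kidneys some shares differed from those in Sham kidneys in each population. Ccl8 took 7.39% to 7.95% of the sum in the 3 RAS KRM libraries and 0.0632% to 0.184% in the 4 Sham libraries, and the shares of Ccl12 were 10.3% ± 1.52 and 3.76% ± 0.191. Ccl17 took 3.3%, 30.8%, 22.9% and 24.6% in the 4 CD11chi RAS libraries and 0.481% to 1.19% in the 3 Sham libraries. In CD11clo macrophages Ccl8 took 1.18% to 6.56% in RAS and 0.104% to 0.39% in Sham libraries. Ccl12 took 1.67% to 15.6% and 0.701% to 0.972% there, with RAS replicate 3 the highest for both genes. The groups did not overlap in any of these shares. In CD11clo RAS replicate 3 the share of Ccl6 was 12.2%, against 40.1% to 67.5% in the other RAS libraries of that population. The summed level itself overlapped between RAS and Sham in every population. It was 4878 ± 1270 (SD) CPM per kb in Sham KRM and 3488 ± 752 (SD) in RAS KRM, 3114 ± 1408 (SD) and 4107 ± 1223 (SD) in CD11chi, and 4019 ± 663 (SD) and 4543 ± 1761 (SD) in CD11clo macrophages.

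**Figure D2:**
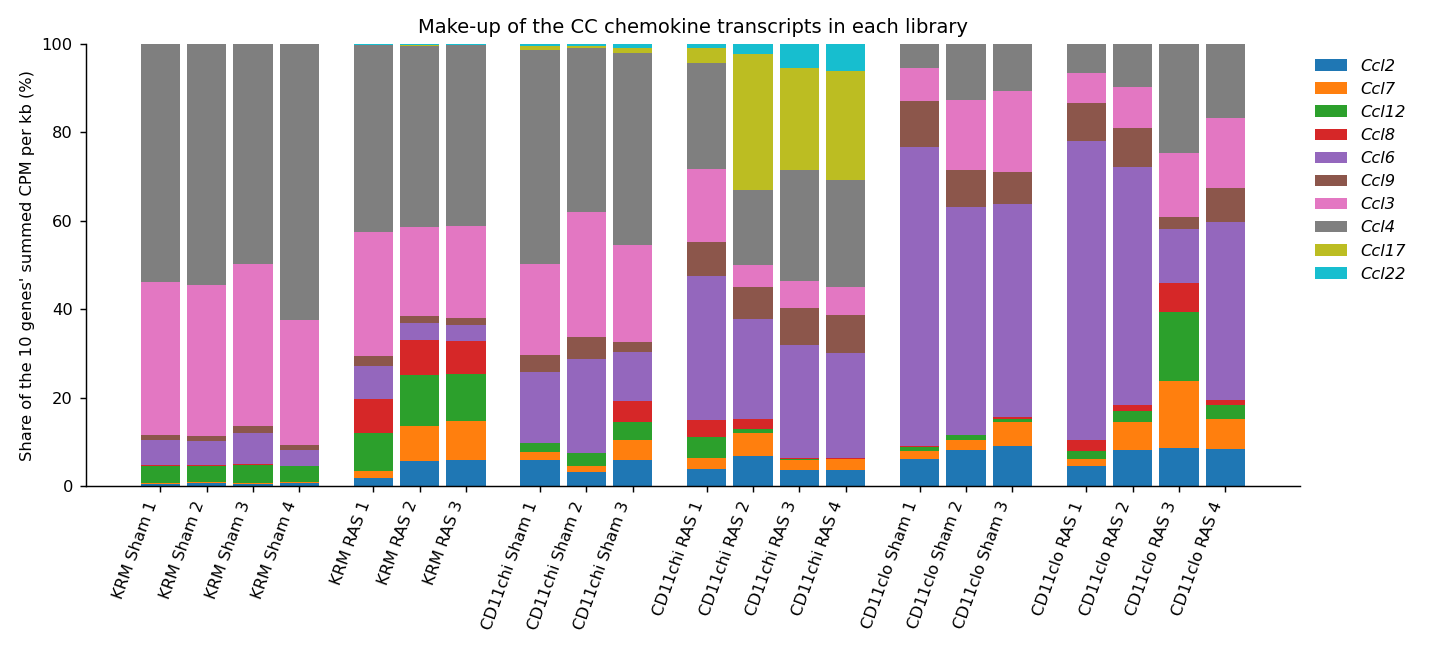
Share of each gene in the summed CPM per kb of the 10 CC chemokines (%, stacked to 100) in the 21 libraries. Ccl4 and Ccl3 fill most of the KRM bars, Ccl6 fills 48.3% to 67.5% of the Sham CD11clo bars, and Ccl17 fills 22.9% to 30.8% of 3 of the 4 CD11chi RAS bars.

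Ccl2 and Ccl7, the ligands of Ccr2 that lie side by side, were lowest in Sham KRM. Ccl2 was at 35.8, 35.7, 22 and 49 CPM in the 4 Sham KRM libraries, at 313, 101 and 125 CPM in Sham CD11chi and at 263, 451 and 365 CPM in Sham CD11clo macrophages. All KRM libraries lay below all others, while CD11chi and CD11clo libraries overlapped. Its log2 ratio in KRM was -3.34 ± 0.284 (adjusted p = 5.57e-05) against CD11clo and -2.35 ± 0.439 (adjusted p = 0.0279) against CD11chi from edgeR's quasi-likelihood test. Ccl7 was at 12.2, 8.37, 4.43 and 16.9 CPM in KRM, 72.5, 31.6 and 68.2 CPM in CD11chi and 57, 87.2 and 156 CPM in CD11clo macrophages. Again no KRM library reached the lowest of the others, with log2 ratios of -3.25 (adjusted p = 8.94e-04) against CD11clo and -2.49 (adjusted p = 0.0321) against CD11chi. Once replicate number was blocked, the adjusted p against CD11chi was 0.0795 for Ccl2 and 0.0854 for Ccl7. Neither passed against CD11chi without CD11chi replicate 1 or without any 1 of the KRM libraries (adjusted p = 0.0551 to 0.121).

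Both genes were higher in KRM of stenotic kidneys. Ccl2 was at 56.3, 242 and 282 CPM in the 3 RAS KRM libraries, all above the Sham libraries, with a log2 ratio of 2.45 ± 0.517 (adjusted p = 0.0333, edgeR). Ccl7 was at 36.3, 233 and 288 CPM, with a log2 ratio of 4.17 ± 0.727 (adjusted p = 0.0258). Replicate 1 was the lowest RAS library for both genes. Neither passed without RAS replicate 2 or 3 or without Sham replicate 1, 2 or 4, where the log2 ratios were 2.07 to 2.66 and 3.70 to 4.51. The libraries highest in Ccl2 and Ccl7, replicates 2 and 3, also held 5367 and 4120 CPM of the 10 tubular epithelium genes and 545 and 550 CPM of the 10 genes of endothelium and stroma. Replicate 1 held 643 and 39 CPM, and the Sham KRM libraries 121 to 1159 and 24 to 44 CPM. All libraries were sorted through a CD45 gate, yet genes of tubular, endothelial and stromal cells were counted in them. CD11chi Sham replicate 3 held 7554 CPM of the tubular genes after the same gate. The part of these cells in the result was not tested, and in bulk libraries fewer cells of a type and less RNA per cell cannot be told apart.

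In monocyte-derived macrophages the RAS and Sham libraries overlapped for both genes. Ccl2 was at 104, 372, 199 and 191 CPM in CD11chi RAS and at 181, 385, 713 and 342 CPM in CD11clo RAS libraries, with log2 ratios against Sham of 0.26 ± 0.539 and 0.17 ± 0.427. Ccl7 was at 45.7, 195, 85.7 and 95.9 CPM in CD11chi RAS and at 45.3, 209, 860 and 187 CPM in CD11clo RAS libraries, with log2 ratios of 0.86 ± 0.528 and 1.70 ± 0.887. In both, the highest CD11clo value was that of replicate 3, and without it the CD11clo log2 ratios were -0.25 (adjusted p = 0.895) for Ccl2 and 0.55 (adjusted p = 0.865) for Ccl7. The difference of the RAS response between KRM and CD11chi macrophages was 2.15 ± 0.789 (adjusted p = 0.147) for Ccl2 and 3.25 ± 0.914 (adjusted p = 0.101) for Ccl7 on the log2 scale. Without KRM RAS replicate 1 these were 2.58 (adjusted p = 0.0431) and 3.73 (adjusted p = 0.0199). Against CD11clo macrophages the difference for Ccl2 was 2.23 ± 0.708 (adjusted p = 0.105), and 2.64 (adjusted p = 0.0119) without that library. For Ccl7 it was 2.39 ± 1.17 (adjusted p = 0.232), 2.85 (adjusted p = 0.0899) without that library and 3.51 (adjusted p = 0.117) without CD11clo RAS replicate 3, so it passed in none of these.

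Ccl12, a further Ccr2 ligand found in mice, was highest in KRM of Sham kidneys. It was at 107, 92, 71.2 and 120 CPM in KRM, at 46.3, 43.7 and 41.3 CPM in CD11chi and at 17.9, 24.9 and 13.3 CPM in CD11clo macrophages. The 3 populations did not overlap. The log2 ratio in KRM was 2.36 ± 0.278 (adjusted p = 3.19e-04) against CD11clo and 1.13 ± 0.204 (adjusted p = 0.0252) against CD11chi, and that of CD11chi against CD11clo was 1.29 ± 0.279 (adjusted p = 0.088). Once replicate number was blocked, the adjusted p was 0.142 for KRM against CD11chi and 0.0484 for CD11chi against CD11clo. In RAS kidneys Ccl12 was at 122, 228 and 237 CPM in KRM, above all Sham KRM libraries, with a log2 ratio of 1.01 ± 0.266 (adjusted p = 0.0525). Without KRM RAS replicate 1 it was 1.23 (adjusted p = 0.00158).

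Ccl12 spread widely in the RAS libraries of the monocyte-derived macrophages. It was at 55.9, 22.1, 5.42 and 2.93 CPM in CD11chi RAS libraries and at 30.8, 50.1, 598 and 60.4 CPM in CD11clo RAS libraries. The CD11clo libraries all lay above the Sham libraries, with a log2 ratio of 3.31 ± 1.13 (adjusted p = 0.553), which was 1.33 without replicate 3. In CD11chi libraries the RAS values fell on both sides of the Sham values, with a log2 ratio of -1.05 ± 0.854 (adjusted p = 0.662).

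Ccl8, a ligand of Ccr8 in mice and a neighbour of Ccl12, separated RAS from Sham KRM most of the 10 genes. It was at 4.4, 2.58, 3.11 and 2.04 CPM in the Sham libraries and at 105, 150 and 156 CPM in the RAS libraries. The log2 ratio was 5.50 ± 0.278 (adjusted p = 8.7e-04, edgeR), and it lay between 5.38 and 5.73 whichever library was left out, with adjusted p-values of 3.61e-06 to 0.0176. Unlike Ccl2 and Ccl7, it was high in replicate 1 as well as in replicates 2 and 3. Replicate 1 held 284 CPM of the 10 genes of T, NK and B cells, against 42 and 36 CPM in the other RAS and 4 to 10 CPM in the Sham libraries. T, NK and B cells belong to the lineages that the sort dumped. Their part in the result was not tested.

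The same gene was higher in every CD11clo RAS library than in every Sham library, at 44.8, 28.8, 240 and 21.1 CPM against 4.64, 2.54 and 7.07 CPM. The log2 ratio of 4.13 ± 1.01 (unadjusted p = 0.00358 from edgeR's quasi-likelihood fit across all genes) did not pass the adjustment (adjusted p = 0.553). Without replicate 3 it was 2.73 (adjusted p = 0.774). In CD11chi macrophages Ccl8 was at 45, 57.1, 9.27 and 4.93 CPM in RAS and at 4.52, 2.42 and 45.7 CPM in Sham libraries, so the groups overlapped through Sham replicate 3. The log2 ratio was 0.69 ± 1.16 (adjusted p = 0.846), and 3.08 (adjusted p = 0.58) without that library. The response of Ccl8 in KRM minus that in CD11chi macrophages was 4.73 ± 1.3 (adjusted p = 0.101), and minus that in CD11clo macrophages it was 1.31 ± 1 (adjusted p = 0.44), so neither difference passed. Without CD11chi Sham replicate 3 the first was 2.40 (adjusted p = 0.505), and without CD11clo RAS replicate 3 the second was 2.72 (adjusted p = 0.0535).

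Ccl6 and Ccl9, ligands of Ccr1 that lie beside each other, were highest in CD11clo macrophages of Sham kidneys. Ccl6 was at 4526, 4408 and 3071 CPM in Sham CD11clo, at 1332, 1066 and 374 CPM in Sham CD11chi and at 540, 442, 416 and 407 CPM in Sham KRM. The log2 ratio of KRM against CD11clo was -3.16 ± 0.209 (adjusted p = 1.59e-05). Ccl9 was at 1180, 1232 and 768 CPM, 533, 434 and 138 CPM, and 197, 162, 169 and 195 CPM in the same order, with a log2 ratio of -2.57 ± 0.207 (adjusted p = 4.32e-05) for KRM against CD11clo. For both genes KRM and CD11chi libraries overlapped in that CD11chi replicate 3 lay below the KRM range. Without it the log2 ratios of KRM against CD11chi were -1.41 (adjusted p = 0.00131) for Ccl6 and -1.42 (adjusted p = 6.96e-04) for Ccl9, against -1.04 for each with it (adjusted p = 0.163 and 0.172). In CD11chi against CD11clo macrophages of Sham kidneys the log2 ratios were -2.08 (adjusted p = 0.119) and -1.49 (adjusted p = 0.201), and without CD11chi replicate 3 they were -1.75 (adjusted p = 0.028) and -1.14 (adjusted p = 0.0759). Once replicate number was blocked, these were -2.22 (adjusted p = 0.0465) and -1.64 (adjusted p = 0.0587).

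In stenotic kidneys Ccl6 and Ccl9 were again lowest in KRM. Ccl6 was at 1333, 1933, 2159 and 1987 CPM in CD11chi RAS, at 4160, 3950, 1566 and 2523 CPM in CD11clo RAS and at 355, 250 and 279 CPM in RAS KRM. Ccl9 was at 537, 1029, 1229 and 1217 CPM, 916, 1103, 628 and 824 CPM, and 170, 189 and 198 CPM. KRM lay below both other populations without overlap, while CD11chi and CD11clo libraries overlapped. The log2 ratio of CD11chi against CD11clo macrophages was -0.67 ± 0.355 (adjusted p = 0.266) for Ccl6 and 0.25 ± 0.321 (adjusted p = 0.669) for Ccl9. The RAS response in CD11chi minus that in CD11clo macrophages was 1.45 and 1.79 on the log2 scale (adjusted p = 0.735 for each), so a difference in response was not shown. For Ccl6 the log2 ratio of KRM was -3.40 ± 0.427 (adjusted p = 0.0135) against CD11clo and -2.71 ± 0.322 (adjusted p = 0.00951) against CD11chi, and for Ccl9 it was -2.25 ± 0.255 (adjusted p = 0.013) and -2.49 ± 0.366 (adjusted p = 0.019). None of these 4 passed without KRM RAS replicate 2 or 3. All CD11chi RAS libraries lay above all Sham libraries for both genes, though the nearest of them were at 1332.5 against 1331.7 CPM for Ccl6 and 536.8 against 532.9 CPM for Ccl9, with log2 ratios of 0.99 ± 0.475 (adjusted p = 0.515) and 1.43 ± 0.526 (adjusted p = 0.508). Ccl6 in RAS KRM lay below Sham KRM, with a log2 ratio of -0.61 ± 0.171 (adjusted p = 0.0603) that was -0.80 (adjusted p = 0.00363) without KRM RAS replicate 1, and Ccl9 in KRM overlapped, with a log2 ratio of 0.05 ± 0.125.

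Lists of monocyte and neutrophil genes were also highest in CD11clo macrophages. The 10 monocyte genes summed to 7349 to 18162 CPM in Sham CD11clo, 666 to 3283 CPM in Sham CD11chi and 579 to 858 CPM in Sham KRM libraries, and to 3501 to 10164, 1186 to 2905 and 650 to 1044 CPM in RAS libraries. The 8 neutrophil genes summed to 1042 to 2471 CPM, 52 to 158 CPM and 6 to 10 CPM in the Sham libraries, although the sort dumped granulocytes. All 10 monocyte genes and all 6 neutrophil genes tested were lower in KRM than in CD11clo macrophages of Sham kidneys, where 41.8% of all genes passed. The part of monocytes and neutrophils in the levels of Ccl6 and Ccl9 was not tested.

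Ccl3 and Ccl4, known as MIP-1 alpha and beta, were highest in Sham KRM. Ccl3 was at 1420, 1192, 927 and 1372 CPM there, at 733, 611 and 316 CPM in Sham CD11chi and at 216, 580 and 497 CPM in Sham CD11clo macrophages. Ccl4 was at 1896, 1634, 1084 and 2594 CPM, 1486, 689 and 538 CPM, and 134, 398 and 248 CPM. For Ccl3 all KRM libraries exceeded all others, and for Ccl4 1 CD11chi library, replicate 1, lay within the KRM range. Against CD11clo macrophages the log2 ratios in KRM were 1.52 ± 0.323 (adjusted p = 0.00639) and 2.79 ± 0.43 (adjusted p = 0.00132), and against CD11chi 1.14 (adjusted p = 0.094) and 0.98 (adjusted p = 0.221). For Ccl3 the value against CD11chi was 0.87 (adjusted p = 0.0258) without CD11chi Sham replicate 3. A list of 12 dissociation genes summed to 32212 to 47336 CPM in Sham KRM, 16575 to 41003 CPM in Sham CD11chi and 21417 to 35359 CPM in Sham CD11clo libraries. In KRM against CD11clo macrophages 3 of them were called higher and 4 lower, where 41.8% of all genes passed. Their part in these differences was not tested.

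Ccl3 was lower in KRM of stenotic kidneys, at 572, 564 and 657 CPM, with a log2 ratio of -1.03 ± 0.18 (adjusted p = 0.0258). It did not pass without RAS replicate 2 or 3 or without Sham replicate 1, 2 or 4, where it was -1.11 to -0.93. Ccl4 was at 742, 994 and 1111 CPM and overlapped with Sham KRM at 1 library, with a log2 ratio of -0.92 ± 0.3 (adjusted p = 0.0809), which was -1.09 (adjusted p = 0.0385) without KRM Sham replicate 3. Both genes are known as immediate responses to tissue digestion. The summed level of 12 dissociation genes was 32212 to 47336 CPM in Sham and 24484 to 27276 CPM in RAS KRM, and 5 of these genes passed in RAS KRM, where 9.79% of all genes did. Hspa1b, Hspa1a and Jun fell, with log2 ratios of -1.55, -1.42 and -1.24 (adjusted p = 0.0391, 0.0389 and 0.0307), while Nr4a1 and Btg2 rose by 2.42 and 0.98 (adjusted p = 0.0291 and 0.03). The 10 macrophage identity genes summed to 19263 to 26201 CPM in Sham and 16561, 10093 and 11723 CPM in RAS KRM, with 2 called lower and a list median of -0.75 against 0.00 over all genes. As given above, the genes of T, NK and B cells summed higher in all RAS than in all Sham KRM libraries, and those of tubular epithelium and of endothelium and stroma did so in replicates 2 and 3. The part of the digestion and of other cells in the levels of Ccl3 and Ccl4 was not tested.

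Ccl3 was at 287, 186, 217 and 226 CPM in the 4 CD11chi RAS libraries, all below the Sham libraries. Its log2 ratio was -1.30 ± 0.336 (unadjusted p = 0.00465 from edgeR's fit, adjusted p = 0.508), and the response in KRM minus that in CD11chi macrophages was 0.23 ± 0.392 (adjusted p = 0.796). Dissociation genes summed to 14471 to 24310 CPM in CD11chi RAS and 16575 to 41003 CPM in Sham libraries. Ccl4 was at 358, 528, 788 and 744 CPM in CD11chi RAS libraries and overlapped with Sham. In CD11clo RAS libraries Ccl3 was at 173, 290, 785 and 428 CPM and Ccl4 at 151, 260, 1160 and 385 CPM, overlapping with Sham, with replicate 3 the highest for both. KRM of stenotic kidneys exceeded CD11chi macrophages in Ccl3, with a log2 ratio of 1.35 ± 0.213 (adjusted p = 0.0228). Against CD11clo macrophages it was 0.49 ± 0.461 (adjusted p = 0.482).

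Ccl17 and Ccl22, the ligands of Ccr4, were CD11chi transcripts. Ccl17 was at 21, 6.95 and 11.5 CPM in Sham CD11chi macrophages, at 0.119, 0.31, 0.357 and 0.407 CPM in Sham KRM and at 0, 0.346 and 0 CPM in Sham CD11clo macrophages. Ccl22 was at 47.8, 22.9 and 38.4 CPM, 2.73, 1.24, 1.43 and 3.56 CPM, and 0, 0.693 and 2.17 CPM. CD11chi macrophages lay above all libraries of the other populations. Against KRM the difference gave a log2 ratio in KRM of -5.39 ± 0.544 (adjusted p = 0.00433) for Ccl17 and -4.05 ± 0.454 (adjusted p = 0.00635) for Ccl22. Once replicate number was blocked, the adjusted p for Ccl17 was 0.0543 and for Ccl22 0.0328. CD11clo macrophages of Sham kidneys held 3 counts of Ccl17 in all, so the ratio of CD11chi to CD11clo pooled counts was 122, with a 95% interval of 41.4 to 594 that covers counting error only, and for Ccl22, with 25 counts in CD11clo, it was 39.8 (26.8 to 61.9). Of these 25 counts 19 came from CD11clo replicate 3, and the fitted log2 ratio of Ccl22 was 5.33 ± 1.16 with that library and 6.77 (adjusted p = 0.095) without it. The test between these populations gave an adjusted p of 0.0549 for Ccl17 and 0.088 for Ccl22, and with the block 0.0236 and 0.0193. Without CD11chi replicate 3 it was 0.034 for Ccl17.

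The levels were higher in most CD11chi libraries of stenotic kidneys. Ccl17 was at 38.6, 752, 558 and 589 CPM and Ccl22 at 54.9, 252, 619 and 660 CPM in the 4 RAS libraries, all above the Sham range, and replicate 1 was the lowest for both. The log2 ratio against Sham was 5.19 ± 1.03 (unadjusted p = 9.71e-04, adjusted p = 0.508 from edgeR) for Ccl17 and 3.41 ± 0.832 (unadjusted p = 0.00332, adjusted p = 0.508) for Ccl22. Neither passed the adjustment, and no gene of the 12739 tested did. Without CD11chi RAS replicate 1 they were 5.57 (adjusted p = 0.0296) and 3.77 (adjusted p = 0.0486). Against CD11clo macrophages of stenotic kidneys, which held 14 counts of Ccl17 and 65 of Ccl22 in all, the log2 ratios were 10.25 ± 1.16 (adjusted p = 0.00298) and 7.76 ± 1.27 (adjusted p = 0.00878), and they passed whichever library was left out. The ratios of pooled counts were 1119 (95% interval 667 to 2048) and 210 (164 to 272). CD11clo replicate 3 held 8 of the 14 and 43 of the 65 counts, and without it the fitted log2 ratios were 11.01 (adjusted p = 0.00565) and 8.87 (adjusted p = 0.0112).

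A list of 10 genes of mature and conventional dendritic cells, such as Ccr7, Fscn1 and Zbtb46, was also highest in CD11chi macrophages. Its summed level was 1308, 2508, 5565 and 5975 CPM in the 4 CD11chi RAS libraries, 2249, 1301 and 521 CPM in Sham CD11chi and 117 to 538 CPM in the 14 libraries of the other populations. All 10 genes were higher in CD11chi than in CD11clo macrophages of RAS kidneys, where 8.27% of all genes passed, among them Ccr7 by 5.84, Cacnb3 by 5.21 and Fscn1 by 4.74 on the log2 scale (adjusted p = 0.00519, 0.00784 and 0.00399). Between RAS and Sham CD11chi macrophages 0 of the 10 passed in edgeR, as did 0% of all genes, with 3 at an unadjusted p under 0.05 and a median log2 ratio of 1.18 against -0.09 over all genes. RAS replicate 1 and Sham replicate 1 were in the opposite order in this list (1308 and 2249 CPM) to that in Ccl17 and Ccl22. In the study's gating dendritic cells were looked for among the cells outside the F4/80 and CD64 gate. The part of dendritic cells in the levels of Ccl17 and Ccl22 was not tested.

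At a much lower level both genes also rose in KRM of stenotic kidneys. Ccl17 was at 0.998, 5.36 and 1.16 CPM, with a log2 ratio of 3.00 ± 0.745 (adjusted p = 0.0466), and Ccl22 at 8.18, 19 and 14.7 CPM, with 2.65 ± 0.461 (adjusted p = 0.0257). The RAS KRM values of Ccl17 rest on 80 counts and the Sham values on 15 counts over the group. All RAS libraries exceeded all Sham libraries in both genes, but neither passed without RAS replicate 2 or 3 or without Sham replicate 1, 2 or 4, and Ccl17 did not without Sham replicate 3 either, with log2 ratios of 1.80 to 3.34 for Ccl17 and 2.37 to 2.99 for Ccl22. The dendritic cell list summed to 205, 303 and 237 CPM in these libraries and 167 to 195 CPM in Sham KRM, and 5 of its 10 genes rose and 1 fell in RAS KRM, where 9.79% of all genes passed. Its part in the result was not tested.

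**Figure D3:**
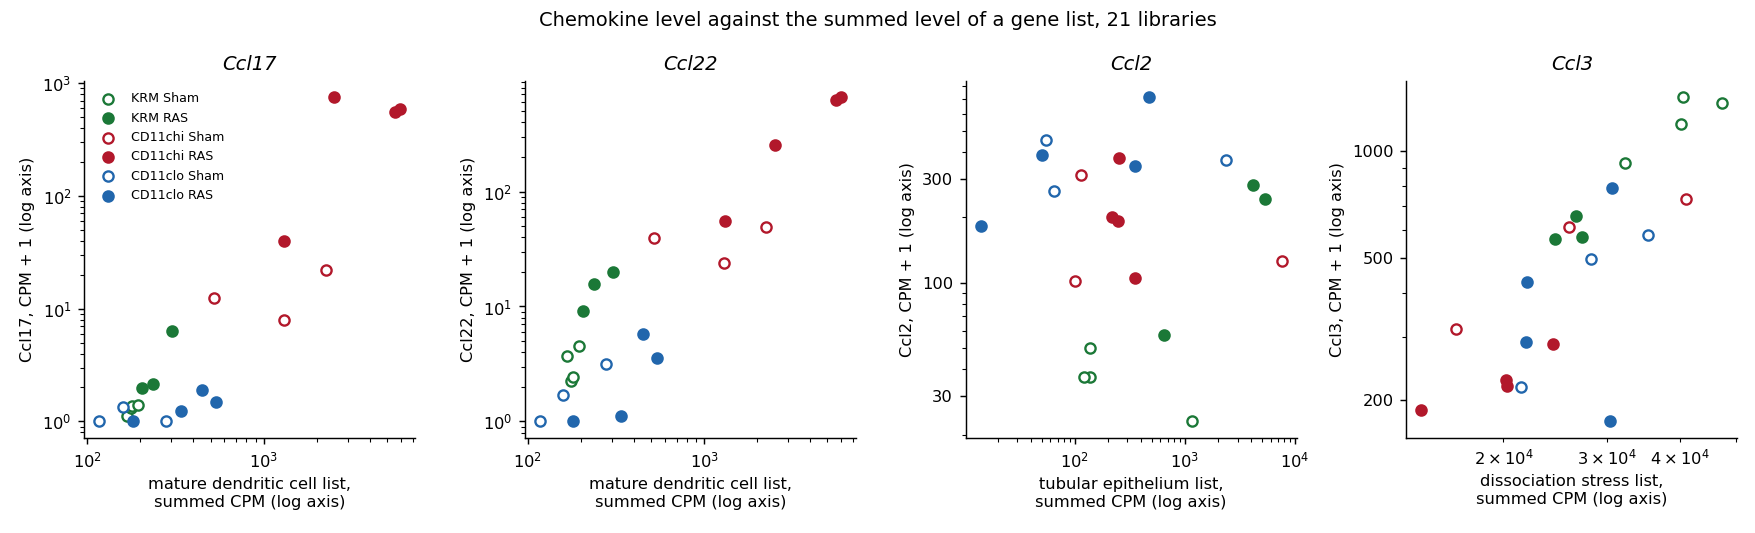
Level of a chemokine (CPM + 1, log axis) against the summed level of a gene list (CPM, log axis) in the 21 libraries, for Ccl17 and Ccl22 with 10 dendritic cell genes, Ccl2 with 10 tubular epithelium genes and Ccl3 with 12 dissociation genes. CD11chi RAS libraries with 2508 to 5975 CPM of the dendritic cell list hold the most Ccl17 and Ccl22, and RAS KRM replicates 2 and 3 lie at 5367 and 4120 CPM of the tubular list.

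Counted together, KRM differed from CD11clo macrophages of Sham kidneys in 7 of the 10 chemokines at an adjusted p under 0.05, 3 higher (Ccl12, Ccl3 and Ccl4) and 4 lower (Ccl2, Ccl7, Ccl6 and Ccl9), where 41.8% of all 12399 genes tested passed. Ccl17 was too low to be tested there. The 7 passed with each library left out and with replicate number blocked. KRM differed from CD11chi macrophages of Sham kidneys in 5 of 10 chemokines, where 5.12% of genes passed. Once replicate number was blocked, 1 of the 5 was left, Ccl22. The count was 2 without CD11chi replicate 1 or KRM replicate 1, 2 or 4, 3 without KRM replicate 3, 4 without CD11chi replicate 2 and 8 without CD11chi replicate 3. Between CD11chi and CD11clo macrophages of Sham kidneys 0 of 10 passed in edgeR, where 1.52% of genes passed, 6 had an unadjusted p under 0.05, and DESeq2 and limma gave 6 and 2. With the block it was 4 (Ccl12, Ccl6, Ccl17 and Ccl22), and without CD11chi replicate 3 it was 2.

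In RAS kidneys KRM differed from CD11chi macrophages in 5 of 10 chemokines (Ccl3 higher and Ccl6, Ccl9, Ccl17 and Ccl22 lower), where 9.23% of genes passed, and from CD11clo macrophages in 2 (Ccl6 and Ccl9), where 9.17% passed. The first count was 0 without KRM RAS replicate 2 or 3, 1 without CD11chi RAS replicate 3 or 4, and 3 without CD11chi RAS replicate 2. The second was 0 without KRM RAS replicate 2 or 3, 1 without CD11clo RAS replicate 2 and 5 without CD11clo RAS replicate 3, where Ccl12, Ccl8 and Ccl4 were higher in KRM by 2.05, 2.12 and 1.83 on the log2 scale (adjusted p = 0.0186, 0.0123 and 0.0287). CD11chi differed from CD11clo macrophages in 2 of 10 (Ccl17 and Ccl22), where 8.27% passed, and in 2 with each library left out.

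**Figure D4:**
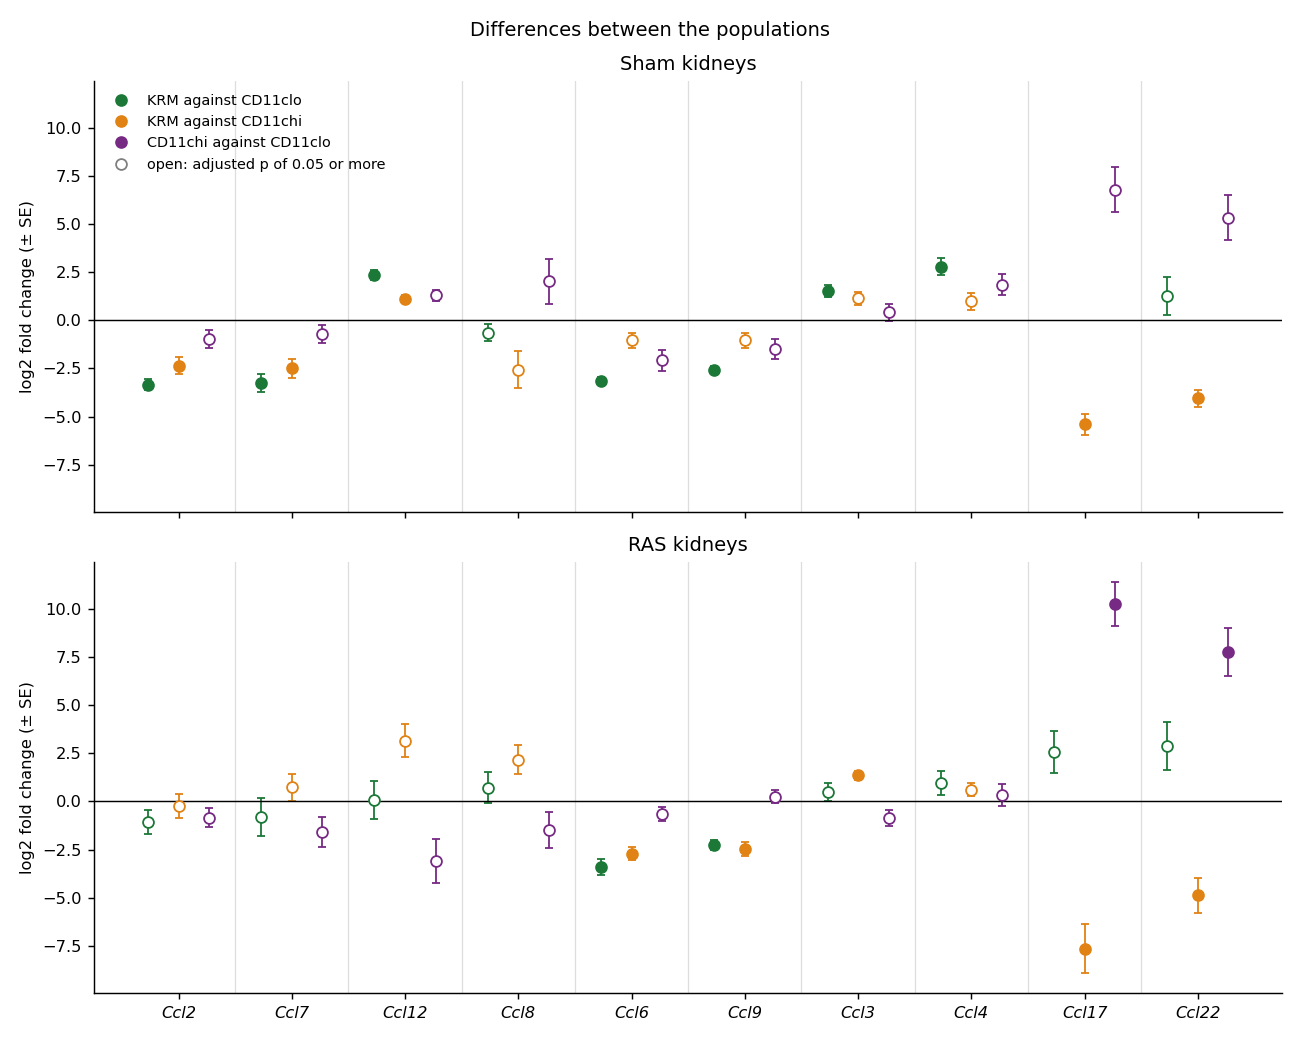
Log2 ratio (± standard error) between the populations for each of the 10 genes, in Sham kidneys (upper panel) and RAS kidneys (lower panel), with filled circles where the adjusted p was under 0.05. KRM lie below both other populations in Ccl6 and Ccl9 in both panels, and CD11chi lie above CD11clo macrophages by 10.25 in Ccl17 and 7.76 in Ccl22 in RAS kidneys.

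Between RAS and Sham kidneys, 6 of the 10 chemokines passed in KRM, 5 higher (Ccl8, Ccl7, Ccl17, Ccl22 and Ccl2) and 1 lower (Ccl3), where 9.79% of the 12852 genes tested passed. The median log2 ratio of the 10 was 1.73, against 0.00 over all genes tested. DESeq2 gave 9 and limma on the deposited log2 values 7. Only 1 of the 6, Ccl8, passed without KRM RAS replicate 2 or 3 or without KRM Sham replicate 1, 2 or 4, where the adjusted p of Ccl2, Ccl7, Ccl3 and Ccl22 was 0.0544 to 0.122 and that of Ccl17 0.105 to 0.206. Without KRM RAS replicate 1 it was 8 of 10.

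In CD11chi macrophages 0 of 10 passed in edgeR, where 0% of the genes tested passed, and in CD11clo macrophages 0 of the 9 tested, where 0% passed as well. At an unadjusted p under 0.05 there were 4 and 2. DESeq2 gave 3 and 1, and limma 0 and 0. Leaving out CD11chi RAS replicate 1 gave 2 in CD11chi macrophages. Whether the response differed between populations was tested as an interaction. It passed for 0 of 10 chemokines between KRM and CD11chi (0% of genes, 5 with an unadjusted p under 0.05, 3 in DESeq2 and 1 in limma), for 0 between KRM and CD11clo (0.245% of genes, 2 unadjusted, 1 in DESeq2 and 2 in limma) and for 0 between CD11chi and CD11clo macrophages (0% of genes, 3 unadjusted, 0 in DESeq2 and 0 in limma). A response that passed in KRM and not elsewhere was therefore not shown to differ.

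**Figure D5:**
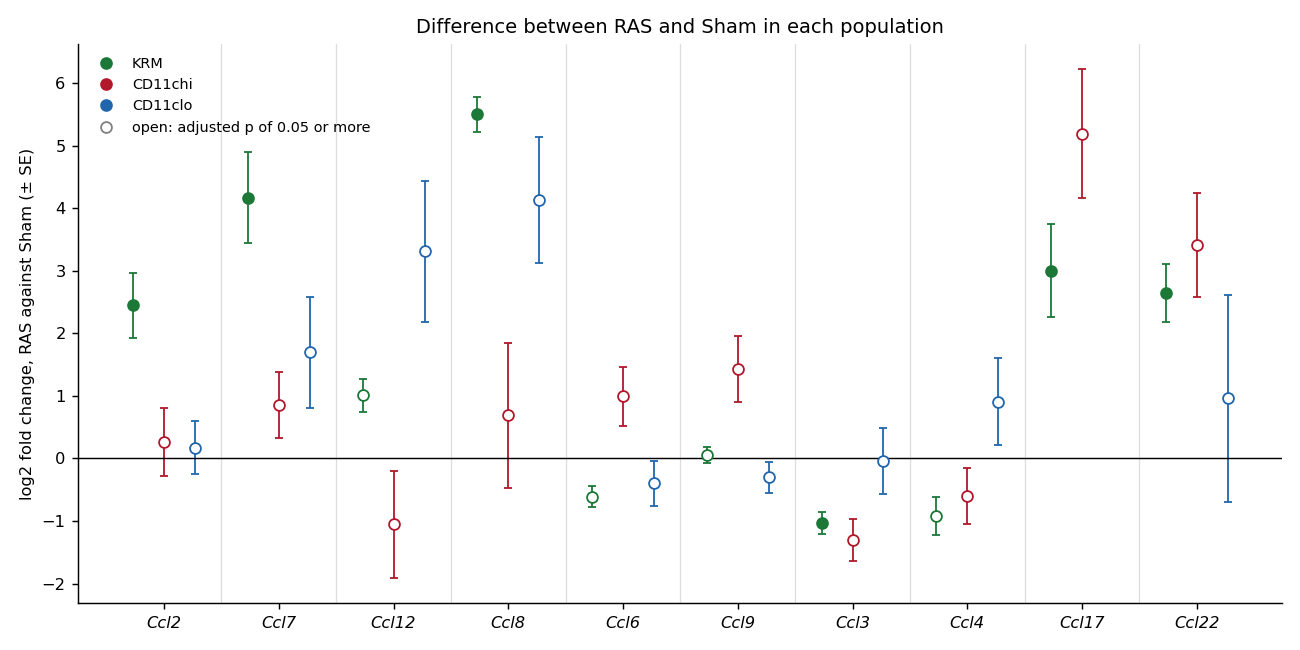
Log2 ratio (± standard error) of RAS against Sham for each of the 10 genes in KRM, CD11chi and CD11clo macrophages, with filled circles where the adjusted p was under 0.05. Filled circles are found in KRM alone, from 5.50 for Ccl8 to -1.03 for Ccl3, and the open circles of Ccl17 in CD11chi and of Ccl8 in CD11clo macrophages lie at 5.19 and 4.13.

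Of the other CC chemokines, 10 were found and 4 to 6 were abundant enough to be tested in a comparison. Ccl24, a chemoattractant of eosinophils through Ccr3, was lower in KRM than in CD11chi macrophages by log2 ratios of -5.86 in Sham and -4.19 in RAS kidneys (adjusted p = 0.00358 and 0.0318) and lower than in CD11clo macrophages by -6.80 and -4.90 (adjusted p = 3.69e-05 and 0.0126). Ccl5, a chemoattractant of T cells, was at 110 ± 54.3 CPM (SD, n = 4) in CD11chi RAS and 8.89 ± 3.73 CPM (SD, n = 4) in CD11clo RAS libraries, a log2 ratio of 3.68 (adjusted p = 0.0036). It was also higher in KRM than in CD11clo macrophages, by 2.07 in Sham and 2.57 in RAS kidneys (adjusted p = 0.00371 and 0.0477). The 10 genes of T, NK and B cells, cells known to express Ccl5, summed to 49 to 201 CPM in CD11chi RAS, 13 to 32 CPM in CD11clo RAS and 284, 42 and 36 CPM in the RAS KRM libraries, and to 4 to 10 CPM in Sham KRM and 2 to 10 CPM in Sham CD11clo libraries. Of the 7 tested, 4 were higher in CD11chi than in CD11clo macrophages of RAS kidneys, led by Nkg7 at 2.94 and Cd8a at 2.60 (adjusted p = 0.015 and 0.0342), where 8.27% of all genes passed. Of 9 tested, 2 were higher in RAS KRM than in CD11clo macrophages, Ncr1 at 4.41 and Klrb1c at 4.24 (adjusted p = 0.0276 and 0.0355), where 9.17% of all genes passed. The part of these cells in the level of Ccl5 was not tested. Between RAS and Sham 0 of the 4 tested passed in KRM, 0 of 4 in CD11chi and 0 of 5 in CD11clo macrophages in edgeR, with 2, 1 and 1 at an unadjusted p under 0.05, where 9.79%, 0% and 0% of all genes passed.

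The receptors had an order of their own. In KRM against CD11clo macrophages of Sham kidneys 2 of the 7 receptor genes tested were higher and 4 lower, where 41.8% of all genes passed, led by Ccr3 at -8.39, the atypical receptor Ccbp2 at 7.16 and Ccr1 at -3.61 (adjusted p = 4e-06, 0.00294 and 6.79e-05, edgeR). Ccbp2 was at 0 counts in every Sham CD11clo library and at 0.93 to 2.38 CPM in Sham KRM, so the fitted size of its difference is uncertain. Ccr3 was at only 0.413 to 0.951 CPM in Sham KRM, so its size is uncertain as well. Ccr1, the receptor of Ccl6, Ccl9 and Ccl3, was lower in KRM also against CD11chi macrophages, by log2 ratios of -2.28 in Sham and -3.26 in RAS kidneys (adjusted p = 0.0197 and 0.0284). It was at 15 to 17.5 CPM in Sham KRM and at 106 to 275 CPM in Sham CD11clo macrophages. In Sham kidneys the means of Ccr1, Ccl6 and Ccl9 were lowest in KRM and highest in CD11clo macrophages, whereas the mean of Ccl3 was highest in KRM. Ccr2 is given because it is a receptor of members, and was chosen after its values were seen. Ccr2, the receptor of Ccl2, Ccl7 and Ccl12, was at 633 ± 113 CPM (SD, n = 4) in Sham KRM and 1301 ± 564 CPM (SD, n = 3) in Sham CD11clo macrophages, a log2 ratio of -1.07 (adjusted p = 0.0261).

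Of 7 receptor genes tested between RAS and Sham KRM, where 9.79% of all genes passed, 2 rose, Ccr8 by 4.71 and Ccr7 by 2.13 (adjusted p = 0.0394 and 0.0286). Ccr8, the receptor of Ccl8, was at 2.05 ± 1.06 CPM (SD, n = 3) in RAS KRM and 0 to 0.31 CPM in Sham KRM, at or under the floor of 3 counts, so the fitted size of its difference is uncertain. Both receptors are also known from T cells, and Ccr7 is in the dendritic cell list, of which 5 genes rose in these libraries. Of 8 genes of T, NK and B cells tested 6 rose, with a list median of 5.28 against 0.00 over all genes. The part of these cells in the levels of Ccr8 and Ccr7 was not tested. In RAS kidneys CD11chi macrophages exceeded CD11clo macrophages in Ccr7 by 5.84 and in Ccr8 by 2.85 (adjusted p = 0.00519 and 0.023). Ccr4, the receptor of Ccl17 and Ccl22, was at 0 counts in every CD11clo and every Sham KRM library and at no more than 1.58 CPM elsewhere.

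Genes known to respond to NF-kB, a regulator of many chemokine genes, were compared as a list of 12. In KRM against CD11clo macrophages of Sham kidneys 7 were lower and 0 higher, where 41.8% of all genes passed, led by Ptgs2, Cxcl1 and Cxcl2 at -5.15, -4.01 and -2.85 (adjusted p = 5e-05, 6.38e-04 and 8.29e-05), with a list median of -1.20 against -0.04 over all genes. In RAS against Sham KRM, where 9.79% of all genes passed, 2 rose, Ptgs2 by 4.60 and Icam1 by 0.82 (adjusted p = 0.0331 and 0.0434), with a median of 0.98 against 0.00. The summed level of the list was 5165 to 6342 CPM in Sham KRM and 4986, 9833 and 11349 CPM in the 3 RAS KRM libraries, lowest in replicate 1, as Ccl2 and Ccl7 were.

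Members of a pair varied together over the 21 libraries. Pearson's r of log2 CPM was 0.949 for Ccl6 and Ccl9, 0.938 for Ccl17 and Ccl22, 0.921 for Ccl2 and Ccl7 and 0.767 for Ccl3 and Ccl4, where the libraries share the differences between groups. After each group's mean was taken out it was 0.873, 0.669, 0.902 and 0.836. Values this high were not particular to neighbours. Ccl4 gave 0.806 with Ccl22, 0.731 with Ccl7 and 0.730 with Ccl2, and Ccl7 gave 0.699 with Ccl22. Other members of different clusters went the other way, down to -0.761 for Ccl8 and Ccl9. The genes of each neighbouring pair lie in 1 cluster, and whether they share reads was not tested. Among 12871 other genes, those most like a member were Ostf1, Ms4a4c and Pira2 for Ccl6 (r = 0.986, 0.979 and 0.978) and Zyx, Ube2l3 and Capzb for Ccl9 (0.971, 0.970 and 0.967). For Ccl2 they were Emp1, Ccl7 and Tubb6 (0.925, 0.921 and 0.920), and for Ccl7 they were Ier3, Ccl2 and Il10 (0.939, 0.921 and 0.908).

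The same measure gave Rcbtb2 and Spic for Ccl12 (0.887 and 0.887) and Ikzf4, Cp and Rgs16 for Ccl8 (0.83, 0.83 and 0.82). For Ccl3 it gave Otud1 and Jun (0.919 and 0.888), of which Jun is in the dissociation list, and for Ccl4 Pea15a, Rgs1 and Pdgfb (0.915, 0.907 and 0.897). For Ccl17 it gave Tubb5, Il4i1 and H2-DMb2 (0.956, 0.956 and 0.953), and for Ccl22 Stmn1, Klri1 and Smc2 (0.972, 0.967 and 0.947). Within the 7 libraries of a population these values differed. Spic with Ccl12 was at 0.98 in CD11chi, 0.77 in CD11clo and -0.11 in KRM, Capzb with Ccl9 at 0.96, 0.86 and -0.01, and Emp1 with Ccl2 at 0.64, 0.53 and 0.99. These are descriptions over libraries that share groups, and no test was made of them.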

How the data were processed

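Sorted macrophage RNA was amplified with a SMART-Seq v4 ultra-low-input kit, made into Nextera XT libraries and sequenced in paired ends. The authors aligned reads to mm10 with OSA and deposited unscaled estimated counts by gene symbol, of which 8.57% to 12.2% per library were not whole and were rounded. The deposited second table gives TPM values, quantile-normalized, on the log2 scale. There KRM RAS replicate 1 did not match its counts (Spearman 0.688, at least 0.908 elsewhere), so this table served limma alone, also without that library, an alternative chosen after seeing the data. DESeq2 is named in the submitters' processing notes.

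Lines sharing a name (3730 of 37620) were summed. edgeR 4.0.16 in R 4.3.3 used TMM, filterByExpr (minimum count 10, minimum total 15) and two-sided quasi-likelihood F tests among only the groups compared, with Benjamini-Hochberg adjustment over every gene tested, and a call is an adjusted p under 0.05. Populations were compared in pairs within Sham and within RAS kidneys, RAS with Sham within each population, and the responses by interaction. Levels per kb used the union of GENCODE vM21 exons. Alternatives were DESeq2 1.42.0, limma 3.58.1, median-of-ratios or total-count scaling, no filter, a single model of all 6 groups, a replicate block, and fits without each library or without all Sham replicate 3 libraries. The fits were tested on simulated counts.

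Named genes are the 10 members, at most 3 called genes of largest change per list and comparison, and the 3 genes of highest r per member, with exceptions stated; a few genes that the rule names are not reported here. Members and lists were chosen with earlier results of these data known. Deviations from group means correlated between same-numbered libraries by at least 0.246 for each pair of Sham populations and 0.204 for KRM and CD11clo in RAS kidneys. This was taken as a sign of pairing. In Sham kidneys the own number matched best in 3 of 3 for KRM and CD11clo, 2 of 3 for KRM and CD11chi and 1 of 3 for CD11chi and CD11clo. For KRM and CD11clo in RAS kidneys it did so in 2 of 3. Pairing is therefore uncertain, and the main fits hold no block. Elsewhere some pair fell under 0.1. No 2 replicates matched within counting error. Intervals and floors cover counting error only, as the reads carry no molecular identifiers.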

Additional observations from a re-analysis of the deposited data

Results flagged for a closer look

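In CD11clo macrophages of RAS kidneys, replicate 3 lay far from the other 3 libraries in 2 chemokines. Its Ccl12 was 598 CPM against 30.8 to 60.4 CPM, and its Ccl8 was 240 CPM against 21.1 to 44.8 CPM. The gap to the nearest library was 0.948 and 0.892 of the group's range, beyond Dixon's 95% critical value. In all, 30 sets of 4 libraries were examined, of which chance would mark about 1.5. The same library held 17350 CPM of macrophage identity genes and 3501 CPM of monocyte genes, against 6479 to 8016 and 7518 to 10164 CPM in its group.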

How the results depend on the processing

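The 118 values of a chemokine in a comparison, of which 27 passed, were recomputed 1993 times under the alternatives. In 1818 of these the outcome, passed or not, was that of the main fit, in 92 a call was lost and in 83 a call was gained. The 92 losses all fall on the 27 that passed, while the 1818 include values that passed in neither fit. No called value changed its sign, but 46 values of 18 pairs without a call in either fit did. Scaling by total counts moved 2 of 60 group levels by more than 1 SD.

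Counts of chemokines passed moved by less than 1.5 times for KRM against CD11clo in Sham kidneys (7), with 6 in 1 fit over all groups, where Ccl12 was lost (adjusted p = 0.0747), and 8 without all Sham replicate 3 libraries, and in DESeq2, which gave 7 for KRM against CD11chi in Sham and in RAS kidneys (5 each). They moved by over 1.5 times as follows. For KRM against CD11chi in Sham kidneys (5), they were 3 in 1 fit over all groups, 1 with the replicate number as a block, 3 in limma and 8 without all Sham replicate 3 libraries, and 2 to 8 with 1 library left out. For CD11chi against CD11clo in Sham kidneys (0), they were 4, 4, 2 and 6 in the same order, 6 in DESeq2 and 0 to 2 with 1 library left out. For KRM in RAS kidneys, the block gave 1 against CD11chi (5), with 0 to 6 when 1 library was left out, and 0 to 5 were left against CD11clo (2). For RAS against Sham in KRM (6), 1 fit gave 3, the block 1, and leaving out 1 library 1 to 8. In CD11chi (0), 1 fit gave 1, DESeq2 3 and leaving out 1 library 0 to 2, and in CD11clo (0) DESeq2 gave 1. For the difference in response of KRM and CD11chi (0), DESeq2 gave 3, limma 1, limma without KRM RAS replicate 1 2, and leaving out 1 library 0 to 2, and for KRM and CD11clo (0) 1, 2, 2 and 0 to 1. The cause of these changes was not tested, except that fewer libraries leave fewer degrees of freedom. RAS against Sham in KRM was not taken as paired. There the block took the count to 1, and correlations with the own number were best in 1 of 3. Groups of 3 or 4 libraries limit every test here.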

Other observations

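Markers of other cells moved with the surgery in KRM, where 9.79% of all genes passed. Of 10 genes of T, NK and B cells 6 of 8 tested rose in RAS KRM, with a list median of 5.28, of 10 tubular epithelium genes 3 of 8 rose, with a median of 5.23, and of 10 genes of endothelium and stroma 3 of 6 rose, with a median of 3.54, all on the log2 scale from edgeR. Of 10 macrophage identity genes 2 fell, among them C1qa by -0.88 (adjusted p = 0.0462), with 8 at an unadjusted p under 0.05 and a list median of -0.75. Their summed level was 19263 to 26201 CPM in Sham and 16561, 10093 and 11723 CPM in RAS KRM, without overlap. Of 10 monocyte genes Fn1 and Plac8 rose, by 1.15 and 1.06 (adjusted p = 0.0286 and 0.0282), and Chi3l3 fell, by -3.37 (adjusted p = 0.0419). Of 8 neutrophil genes 1 rose, and in KRM against CD11clo macrophages all 6 tested were lower in both Sham and RAS kidneys. Over the 9 lists of cell types and cell states, 0 of 87 entries passed between RAS and Sham in CD11chi and 0 of 82 in CD11clo macrophages in edgeR, where 0% of all genes passed in each, with 21 and 17 at an unadjusted p under 0.05.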
